A study of Mus musculus with 8 samples.

Results

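The miR-17-92 cluster is a group of 6 microRNA hairpins cut from a single primary transcript, and it was followed here through its 6 main mature arms: mmu-miR-17-5p, mmu-miR-18a-5p, mmu-miR-19a-3p, mmu-miR-20a-5p, mmu-miR-19b-3p and mmu-miR-92a-3p. They were taken by name from 1978 mature miRNA names in the table, with the rows of each name summed, and all 6 passed the filter on low counts that left 382 names for testing. MicroRNAs were sequenced from CD8+ T cells of mouse spleen, in 8 libraries forming 4 groups of 2. The groups were MP cells of mCre mice, TN cells of mCre mice, MP cells of WT mice and TN cells of WT mice. Both miR-29 and Cre, the recombinase that deletes marked DNA, appear in the series title, but the labels do not state the sequence deleted, the promoter that drives Cre, the strain or the age of each animal. TN and MP are not spelled out, and the design text has VM in place of MP; true naive and virtual memory are the usual readings of TN and VM. The sort used CD8, CD4, CD44 and CD122 after bead enrichment, and 10000 sorted cells per sample went into Trizol.

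The primary transcript is the noncoding host gene Mir17hg, a known target of the transcription factor MYC and a transcript that proliferating lymphocytes induce. Each hairpin is cut out by the Drosha and Dicer enzymes, and the mature strand then guides Argonaute to messenger RNAs through bases 2 to 8, the seed. In T cells the cluster is known for promoting proliferation and survival, with miR-19b and miR-17 as the members most often tied to these effects. Effector and memory formation by CD8+ T cells is known to depend on its level.

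In the mm10 build the 6 hairpins lie on the plus strand of chromosome 14 at chr14:115043671-115044506, a span of 836 bases. All 6 fall in exon 2 of Mir17hg (chr14:115043271-115046727). From the start of the Mir17 hairpin, Mir18 begins at 180 bases, Mir19a at 329, Mir20a at 486, Mir19b-1 at 634 and Mir92-1 at 756. The sequences below show which members share a seed and how little sets relatives apart, which bears on how reads can be assigned to them. They come from RefSeq on GRCm38.p6, run 5′ to 3′, and have bases 2 to 8 in capitals.
miR-17-5p: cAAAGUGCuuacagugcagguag
miR-20a-5p: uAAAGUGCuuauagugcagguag
miR-18a-5p: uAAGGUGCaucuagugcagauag
miR-19a-3p: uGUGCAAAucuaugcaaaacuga
miR-19b-3p: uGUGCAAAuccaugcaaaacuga
miR-92a-3p: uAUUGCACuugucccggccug

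The 6 arms carry 4 seeds. miR-17-5p and miR-20a-5p share one seed, and from base 1 at the 5′ end they differ by C1U and C12U. miR-19a-3p and miR-19b-3p share another and differ by U11C alone. miR-18a-5p and miR-92a-3p each have a seed that no other member carries. GC content ran from 34.8% in miR-19a-3p and 39.1% in both miR-20a-5p and miR-19b-3p to 57.1% in miR-92a-3p, against a median of 47.8% over the 308 tested miRNAs with a sequence at hand.

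Relatives outside the cluster come from the paralog clusters miR-106a-363 on chromosome X and miR-106b-25 on chromosome 5. Those nearest to the members, with the 2 partner arms that tell the pair of miR-92a hairpins apart, are shown for comparison, again with bases 2 to 8 in capitals.
miR-106a-5p: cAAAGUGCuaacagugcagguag
miR-20b-5p: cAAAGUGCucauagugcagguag
miR-93-5p: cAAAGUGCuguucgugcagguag
miR-106b-5p: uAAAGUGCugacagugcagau
miR-25-3p: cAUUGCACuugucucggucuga
miR-92a-1-5p: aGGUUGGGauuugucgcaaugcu
miR-92a-2-5p: aGGUGGGGauugguggcauuac

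miR-106a-5p differs from miR-17-5p by U10A alone, and miR-20b-5p differs from miR-20a-5p by U1C and U10C. Mature miR-19b-3p and miR-92a-3p can each come from chromosome 14 or from the miR-106a-363 cluster, through the Mir19b-2 and Mir92-2 hairpins, and the mature strand does not tell the source. Each of these 2 names stood in 2 rows of the deposited table that do not name a hairpin. For miR-19b-3p the first row held 49.5% to 50.1% of the sum in each library; for miR-92a-3p it held 81.4% to 90.4%. Counts of single members that share reads with a relative are also uncertain, by an amount that these splits do not measure.

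miR-92a-3p, an arm known to be abundant in blood cells, made up nearly all of the cluster's counts. It held 84262 and 91918 CPM (counts scaled to library size, after TMM scaling) in mCre MP, 76991 and 105276 in mCre TN, 81586 and 101739.7 in WT MP, and 55298 and 73857 in WT TN. Its highest library stood 1.90-fold above its lowest. It averaged 88090.2 ± 5413 CPM in mCre MP, 91134 ± 20000.1 in mCre TN, 91663 ± 14251 in WT MP and 64578 ± 13123 in WT TN (SD, n = 2 each). The 2 WT TN libraries were the lowest of the 8, and the means of the other 3 groups lay within their spread of each other. The 6 arms together took 6.80% to 10.5% of all counts of a library.

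The other 5 arms were far less abundant and far more variable. Their sum was 246.8 and 428.9 CPM in mCre MP, 1271 and 826.7 in mCre TN, 1638 and 1144 in WT MP, and 3788 and 278.8 in WT TN. The range over the 8 libraries was 15.3-fold. Of the counts of all 6 arms, these 5 made up 0.292% and 0.464% in mCre MP, 1.62% and 0.779% in mCre TN, 1.97% and 1.11% in WT MP, and 6.41% and 0.376% in WT TN. Both mCre MP libraries and the second WT TN library were thus low, and the first WT TN library was the highest. In bulk libraries such as these, fewer cells that hold a miRNA and less of it per cell cannot be told apart.

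By count, miR-92a-3p was the highest and miR-18a-5p the lowest member in 8 of 8 libraries, with miR-19a-3p just above miR-18a-5p in 8 of 8. Between them, miR-20a-5p came next after miR-92a-3p in 7 libraries, followed by miR-17-5p and then miR-19b-3p in 6. The exceptions were the second mCre TN library, where miR-17-5p exceeded miR-20a-5p, and the first WT TN library, where miR-19b-3p exceeded miR-17-5p. Small RNA kits that ligate adapters take up different miRNAs unequally, so this order is one of counts. One primary transcript holds each hairpin once, but miR-92a-3p can also come from its copy on chromosome X. The count ratio of miR-92a-3p to miR-17-5p ran from 84.2 in the first WT TN library to 1020 in the first mCre MP library. This ratio therefore does not measure the output of that transcript alone.

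**Figure D1:**
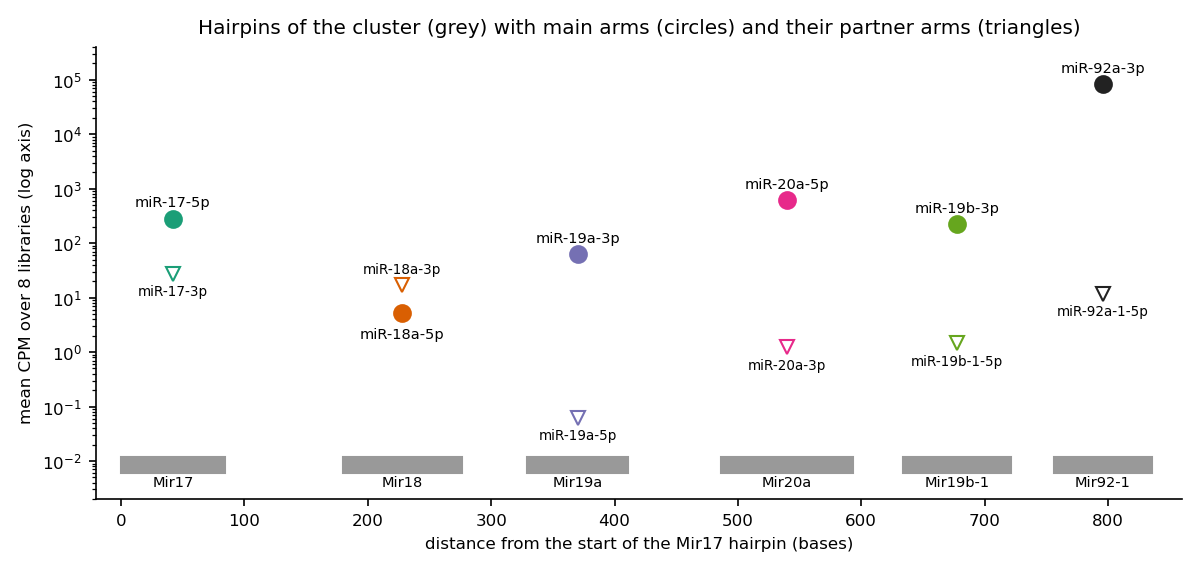
Mean CPM over the 8 libraries (vertical log axis) of the main arm (circles) and partner arm (triangles) of each hairpin of the cluster, placed by distance in bases from the start of the Mir17 hairpin; grey boxes are the hairpins. miR-92a-3p, from the last hairpin or its copy on chromosome X, averaged 83866 CPM, above every other arm, and miR-18a-5p lay below its partner arm.

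miR-17-5p, a repressor of the cell cycle inhibitor Cdkn1a, held 82.6 and 109.8 CPM in mCre MP, 321.6 and 257.5 in mCre TN, 440.4 and 311.0 in WT MP, and 656.6 and 81.1 in WT TN. The means were 96.2 ± 19.3, 289.6 ± 45.3, 375.7 ± 91.5 and 368.8 ± 406.9 CPM in the same order (SD, n = 2 each). The mCre MP libraries lay below both mCre TN and both WT MP libraries, while the 2 WT TN libraries enclosed the range of all the others.

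miR-20a-5p, its seed partner, held 87.9 and 241.9 CPM in mCre MP, 733.8 and 255.1 in mCre TN, 895.97 and 589.5 in WT MP, and 2075 and 120.5 in WT TN. The 2 mCre TN libraries differed by more than the lower of them differed from either mCre MP library. Its count was 0.991 to 3.16 times that of miR-17-5p over the 8 libraries.

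miR-19b-3p, known for promoting T cell proliferation and survival, held 61.97 and 56.5 CPM in mCre MP, 170.1 and 193.4 in mCre TN, 227.2 and 186.4 in WT MP, and 856.1 and 56.3 in WT TN. Replicates of 3 groups lay close together, with means of 59.2 ± 3.88 in mCre MP, 181.8 ± 16.5 in mCre TN and 206.8 ± 28.9 in WT MP, while WT TN averaged 456.2 ± 565.5 CPM (SD, n = 2 each). miR-19a-3p, with the same seed, held 13.8 and 20.6 CPM in mCre MP, 40.5 and 106.1 in mCre TN, 66.7 and 50.7 in WT MP, and 191.99 and 20.8 in WT TN. Its lowest libraries were those of miR-19b-3p, and the count ratio of miR-19b-3p to miR-19a-3p ran from 1.82 to 4.5.

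miR-18a-5p, whose hairpin is known from human cells to need the protein hnRNP A1 for processing, was close to the limit of detection. It had 1 and 0 counts in mCre MP, 29 and 42 in mCre TN, 30 and 23 in WT MP, and 29 and 0 in WT TN. A count of 0 allows up to 3 counts. Over summed counts, mCre MP held 0.0221 times the level of mCre TN (exact 95% interval 0.000551 to 0.127) and 0.0262 times that of WT MP (0.000651 to 0.152), intervals that cover counting error only.

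**Figure D2:**
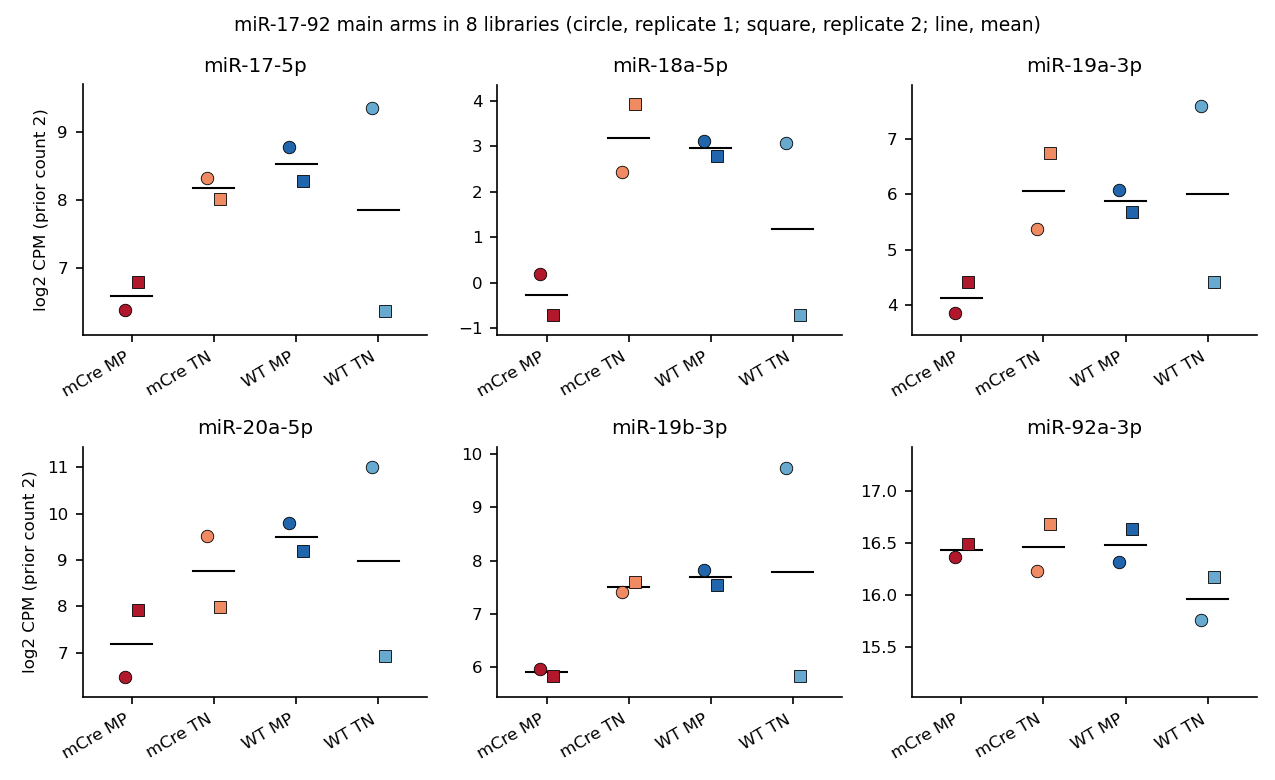
Log2 CPM (vertical axes, prior count 2, each panel at its own range) of the 6 main arms in mCre MP, mCre TN, WT MP and WT TN libraries, with replicate 1 as circles, replicate 2 as squares and group means as lines. For 5 arms both mCre MP libraries and 1 WT TN library lie lowest; for miR-92a-3p, on an axis of about 2 log2 units, the WT TN libraries lie lowest.

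The 3 lowest of the 8 libraries were the same for miR-17-5p, miR-18a-5p, miR-19a-3p, miR-20a-5p and miR-19b-3p: both mCre MP libraries and the second WT TN library. For miR-17-5p the highest of these 3 held 109.8 CPM and the lowest of the remaining 5 held 257.5 CPM; for miR-20a-5p the gap was narrow, 241.9 against 255.1 CPM. miR-92a-3p did not share this order, since its 3 lowest libraries were the first mCre TN library and both WT TN libraries. Of all 382 miRNAs tested, 87 (22.8%) had their lowest values in the same 3 libraries, and 52 (13.6%) had their highest values there. The order is therefore one that many miRNAs outside the cluster shared.

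Other properties of the libraries moved with it. The let-7 family took 63.9% and 60.04% of counts in mCre MP, 52.03% and 43.7% in mCre TN, 43.4% and 45.95% in WT MP, and 51.2% and 69.4% in WT TN, so its 3 highest shares fell in the same 3 libraries. The summed level of 5 mature lymphocyte markers, all detected, was 40581 and 64303 CPM in mCre MP, 113581 and 178585 in mCre TN, 102383 and 106424 in WT MP, and 81490.2 and 47536 in WT TN (unscaled), lowest in these 3 as well. The number of names above 0 was 416, 514 and 478 in these 3 libraries and 532 to 648 in the other 5. The part of these library differences in the levels of the cluster was not tested. Total counts ran from 1936597 to 5230975, with the second WT TN library at the low end. Summed markers of other cell types reached 13.7 CPM for 2 myeloid, 10.01 for 3 erythroid, 65.5 for 2 endothelial and 38.8 for 5 liver, muscle and neural miRNAs, and 1297 to 4266 CPM for 7 epithelial ones.

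The genotype labels could be read against miR-29a-3p, a form of the miRNA named in the title. It held 832.6 and 1498 CPM in mCre MP, 1409 and 15390 in mCre TN, 3105 and 11656 in WT MP, and 2752 and 802.1 in WT TN. The second library labelled mCre TN was the highest of the 8 and the second library labelled WT TN the lowest, which runs against these labels if the deletion lowers miR-29. What the deletion removes is not stated. Counts of called members were also made without these 2 libraries and are given where they differ. For the lists of other miRNAs such counts were made as well, and most of them are not given.

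**Figure D3:**
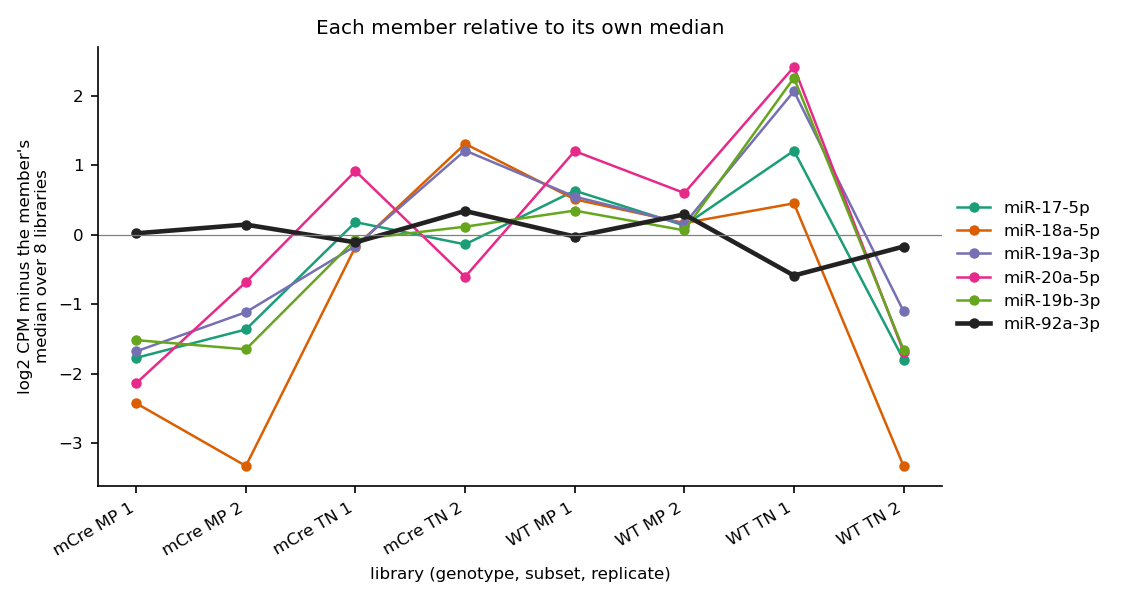
Log2 CPM of each main arm minus its own median over the 8 libraries (vertical axis) in each library (horizontal axis). The lines of 5 arms fall together in both mCre MP libraries and WT TN 2 and peak or stay up in WT TN 1, while the thick line of miR-92a-3p stays within 1 log2 unit of its median.

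MP cells were compared with TN cells, which asks how the 2 subsets differ in their miRNAs. Over both genotypes 0 of the 6 arms passed the threshold of the edgeR quasi-likelihood test (Benjamini-Hochberg adjusted p under 0.05 over the 382 miRNAs), where 2.36% of all miRNAs did. At an unadjusted p under 0.05 the count was also 0 of 6, and DESeq2 called 0 of 6. All but miR-92a-3p had negative estimates: log2 fold change -0.78 ± 0.67 (SE) for miR-17-5p, -1.49 ± 1.67 for miR-18a-5p, -1.46 ± 0.70 for miR-19a-3p, -1.07 ± 0.83 for miR-20a-5p and -1.38 ± 0.69 for miR-19b-3p. Their edgeR adjusted p ran from 0.448 to 0.780. miR-92a-3p had an estimate of 0.23 ± 0.28 with an adjusted p of 0.800. For each of the 6 arms the MP and TN libraries overlapped.

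The call changed without WT TN replicate 2 and without both TN replicate 2 libraries. In both fits WT TN is 1 library, replicate 1. That library was the highest of the 8 for miR-17-5p, miR-19a-3p, miR-20a-5p and miR-19b-3p. With both left out mCre TN is also 1 library, so no TN group has replicates to measure its spread. The counts from these fits therefore depend on which TN libraries were kept. Without WT TN replicate 2, miR-19a-3p fell by 1.97 and miR-19b-3p by 1.86 on the log2 scale in MP cells (edgeR adjusted p 0.0224 and 0.0121), 2 of 6 arms where 9.38% of all miRNAs passed. With both TN replicate 2 libraries left out 4 of 6 passed, miR-17-5p, miR-19a-3p, miR-20a-5p and miR-19b-3p, with edgeR adjusted p from 0.00267 to 0.0307, where 11.3% of all miRNAs passed.

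Within mCre mice the MP libraries held less than the TN libraries of the 5 less abundant arms, without overlap. The same held for 35.6% of all miRNAs tested in that direction. The log2 fold changes were -1.59 ± 0.87 for miR-17-5p, -2.08 ± 0.98 for miR-19a-3p, -1.58 ± 1.18 for miR-20a-5p, -1.62 ± 1.01 for miR-19b-3p and -0.05 ± 0.35 for miR-92a-3p (SE). For miR-18a-5p the fitted value was -5.15 ± 1.91, which depends on the prior count because mCre MP held 1 count in all. By edgeR 0 of the 6 passed, with adjusted p from 0.216 to 0.959, and 0.0% of all miRNAs did. At an unadjusted p under 0.05 the count was 1, miR-18a-5p, which DESeq2 also called (adjusted p 0.0481, where DESeq2 called 9.81% of all miRNAs) and which passed edgeR with no filter on low counts (adjusted p 0.0451, where 2.74% of all miRNAs passed).

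The count changed when a WT TN library or both TN replicate 2 libraries were left out. WT TN libraries are not part of this comparison but enter the scaling and the estimate of spread. The estimates moved little without WT TN replicate 1. They were -1.70 for miR-17-5p, -5.23 for miR-18a-5p, -2.17 for miR-19a-3p and -1.72 for miR-19b-3p. With all libraries they were -1.59, -5.15, -2.08 and -1.62. With either WT TN library left out, that pair no longer adds to the spread. Its part in the calls was not tested. Without WT TN replicate 1, 4 of 6 passed (miR-17-5p, miR-18a-5p, miR-19a-3p and miR-19b-3p, edgeR adjusted p from 0.0357 to 0.0451), where 12.9% of all miRNAs passed. In that fit WT TN is 1 library, WT TN replicate 2. With WT TN replicate 2 left out in its place, miR-18a-5p and miR-19b-3p passed, each at an edgeR adjusted p of 0.0487, 2 of 6 against 9.38% of all miRNAs. When both TN replicate 2 libraries were left out miR-17-5p and miR-20a-5p passed (0.0415 and 0.0393), 2 of 6 against 6.93% of all miRNAs, with mCre TN then at 1 library that is assumed to vary like the other groups.

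Within WT mice 0 of 6 arms passed by edgeR, none had an unadjusted p under 0.05, DESeq2 called 0, and 0.0% of all miRNAs passed by edgeR. The estimates were 0.03 ± 0.85 for miR-17-5p, 0.80 ± 1.38 for miR-18a-5p, -0.86 ± 0.94 for miR-19a-3p, -0.56 ± 1.15 for miR-20a-5p and -1.14 ± 0.995 for miR-19b-3p (log2, SE), with edgeR adjusted p from 0.730 to 0.994 over the 6 arms. miR-92a-3p had both MP libraries above both TN libraries, at an estimate of 0.51 ± 0.35, and 26.2% of all miRNAs were likewise higher without overlap. The direction of the other 5 rested on which WT TN library was kept. Without WT TN replicate 1 the estimates for miR-19a-3p, miR-20a-5p and miR-19b-3p were 1.52, 2.65 and 1.90, and without both TN replicate 2 libraries miR-19b-3p fell by 2.16 on the log2 scale in MP cells (edgeR adjusted p 0.0218), 1 of 6 arms where 3.23% of all miRNAs passed. Each of these fits leaves WT TN at 1 library, which in the second is the highest of the 8 for miR-19b-3p, and takes its spread from the other groups.

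mCre cells were compared with WT cells in each subset, which asks what the labelled genotype does to miRNA levels. Among MP cells both mCre libraries lay below both WT libraries for the 5 less abundant arms; so did 37.4% of all miRNAs tested. The log2 fold changes were -1.96 ± 0.88 for miR-17-5p, -1.77 ± 0.97 for miR-19a-3p, -2.17 ± 1.2 for miR-20a-5p and -1.80 ± 1.02 for miR-19b-3p (SE). miR-18a-5p had a fitted value of -4.73 ± 1.91, subject to the same limit of 1 count. miR-92a-3p stood at -0.06 ± 0.35. By edgeR 0 of 6 passed, with adjusted p from 0.411 to 0.948, and 0.0% of all miRNAs did. A single arm, miR-18a-5p, had an unadjusted p under 0.05, and DESeq2 called 0. Without both TN replicate 2 libraries, which are not part of this comparison but enter the scaling and the estimate of spread, 5 of 6 passed (edgeR adjusted p from 0.0153 to 0.0251), all but miR-92a-3p, where 14.5% of all miRNAs passed.

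Among TN cells 0 of 6 arms passed by edgeR, none had an unadjusted p under 0.05, DESeq2 called 0, and 0.0% of all miRNAs passed. The estimates were -0.35 ± 0.85 for miR-17-5p, 1.21 ± 1.39 for miR-18a-5p, -0.55 for miR-19a-3p, -1.15 for miR-20a-5p, -1.33 for miR-19b-3p and 0.50 for miR-92a-3p (log2). Both mCre TN libraries lay above both WT TN libraries for miR-92a-3p, as they did for 15.7% of all miRNAs. For the other 5 arms the 2 WT TN libraries lay on either side of 1 or both mCre TN libraries. Without WT TN replicate 1 the estimates for miR-17-5p, miR-19a-3p, miR-20a-5p and miR-19b-3p turned positive, from 1.72 to 2.08.

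The difference of the genotype effect between MP and TN cells was negative for all 6 arms and passed the edgeR threshold for 0 of them, where 0.0% of all miRNAs passed. It was -1.61 ± 1.21 for miR-17-5p and -0.55 for miR-92a-3p (log2), with 1 unadjusted p under 0.05, that of miR-18a-5p (0.0371), and 0 calls by DESeq2. Without WT TN replicate 1 it passed for 5 arms, all but miR-92a-3p (edgeR adjusted p from 0.0176 to 0.0377), where 15.6% of all miRNAs passed. WT TN is then 1 library, replicate 2, whose miR-29a-3p runs against its label and whose spread is assumed to be that of the other groups. Without that library instead, 0 arms passed and the difference for miR-19b-3p was 0.47. Over all 382 miRNAs, the comparisons with 0 calls by edgeR had 82 (MP against TN in mCre), 31 (in WT), 41 (mCre against WT in MP), 12 (in TN) and 54 (the difference) with an unadjusted p under 0.05. By DESeq2 the calls numbered 41, 13, 0, 0 and 18 in the same order.

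**Figure D4:**
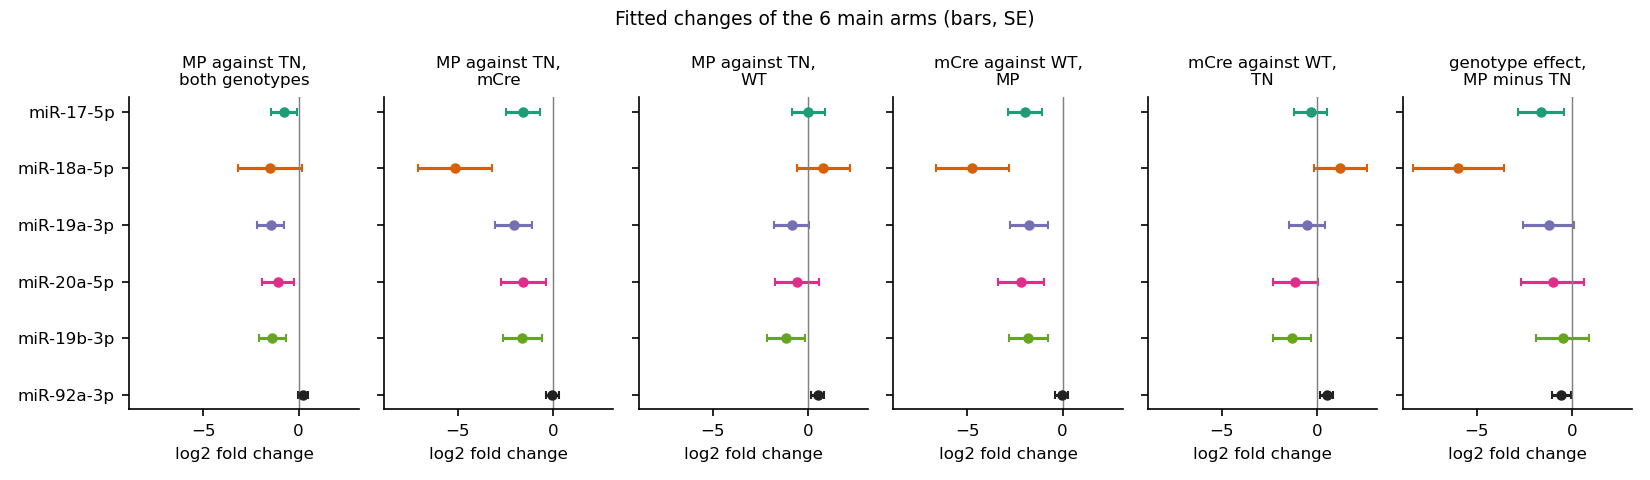
Fitted log2 fold changes (horizontal axes) with SE bars for the 6 main arms (rows) in each comparison (panels), from 8 libraries. The 5 less abundant arms have negative estimates within mCre mice and within MP cells, miR-92a-3p lies near 0 there, and no estimate passed the adjusted threshold.

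Unequal change among members was read from the ratio of each arm to miR-17-5p within a library (log2, pseudocount 0.5), with two-sided exact permutation tests over 4 libraries against 4, adjusted over 10 tests. The smallest p this design allows is 0.0286, which for a single ratio becomes 0.286 after adjustment, so at least 6 of the 10 tests would have had to reach it for any to pass. No ratio passed, and little could be read from that. The ratio of miR-92a-3p to miR-17-5p averaged 8.90 ± 1.16 in MP and 8.20 ± 1.44 in TN libraries (SD, n = 4 each; exact permutation p = 0.543, adjusted 0.857). It averaged 9.07 ± 0.96 in mCre and 8.03 ± 1.44 in WT libraries (exact permutation p = 0.257, adjusted 0.786). The ratio of miR-19a-3p to miR-17-5p averaged -2.57 ± 0.13 in MP and -1.996 ± 0.72 in TN libraries (exact permutation p = 0.143, adjusted 0.786).

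The partner arms of the same hairpins bear on the cluster itself, since they are distinct sequences; 3 of 6 passed the filter. miR-17-3p had 18 and 20 counts in mCre MP, 116 and 191 in mCre TN, 107 and 141 in WT MP, and 143 and 22 in WT TN. Its 3 lowest libraries by CPM were those of miR-17-5p. miR-18a-3p had 31 and 39 counts in mCre MP, 107 and 17 in mCre TN, 113 and 67 in WT MP, and 54 and 34 in WT TN, more than miR-18a-5p in 7 of 8 libraries, and it did not follow that order. miR-19a-5p, miR-20a-3p and miR-19b-1-5p had 3, 33 and 24 counts over all libraries.

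miR-92a-1-5p comes from the chromosome 14 hairpin and miR-92a-2-5p from its copy on chromosome X, so each names its hairpin, which miR-92a-3p does not. Their shares are of partner arm counts and do not measure how miR-92a-3p divides between its 2 sources. miR-92a-1-5p had 2 and 6 counts in mCre MP, 27 and 135 in mCre TN, 29 and 94 in WT MP, and 22 and 2 in WT TN. miR-92a-2-5p had 105 and 111 counts in mCre MP, 123 and 63 in mCre TN, 43 and 75 in WT MP, and 20 and 113 in WT TN. The chromosome 14 arm thus made up 1.87% and 5.13% of both arms' counts in mCre MP, 18.0% and 68.2% in mCre TN, 40.3% and 55.6% in WT MP, and 52.4% and 1.74% in WT TN. The Wilson 95% intervals of the 3 lowest shares reached at most 10.7%, and the lowest bound among the other 5 was 12.7%. These 3 libraries are again both mCre MP libraries and the second WT TN library, and in CPM they were the 3 highest for miR-92a-2-5p. Neither arm passed the edgeR threshold in any of the 6 comparisons (adjusted p at least 0.214 for miR-92a-1-5p and 0.437 for miR-92a-2-5p). miR-92a-1-5p passed in MP against TN within mCre mice with DESeq2 (adjusted p 0.0250) and with no filter on low counts (edgeR adjusted p 0.0308). There 9.81% and 2.74% of all miRNAs passed. With both TN replicate 2 libraries left out, miR-17-3p and miR-92a-1-5p passed in mCre against WT among MP cells (edgeR adjusted p 0.0251 each), where 14.5% of all miRNAs passed.

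**Figure D5:**
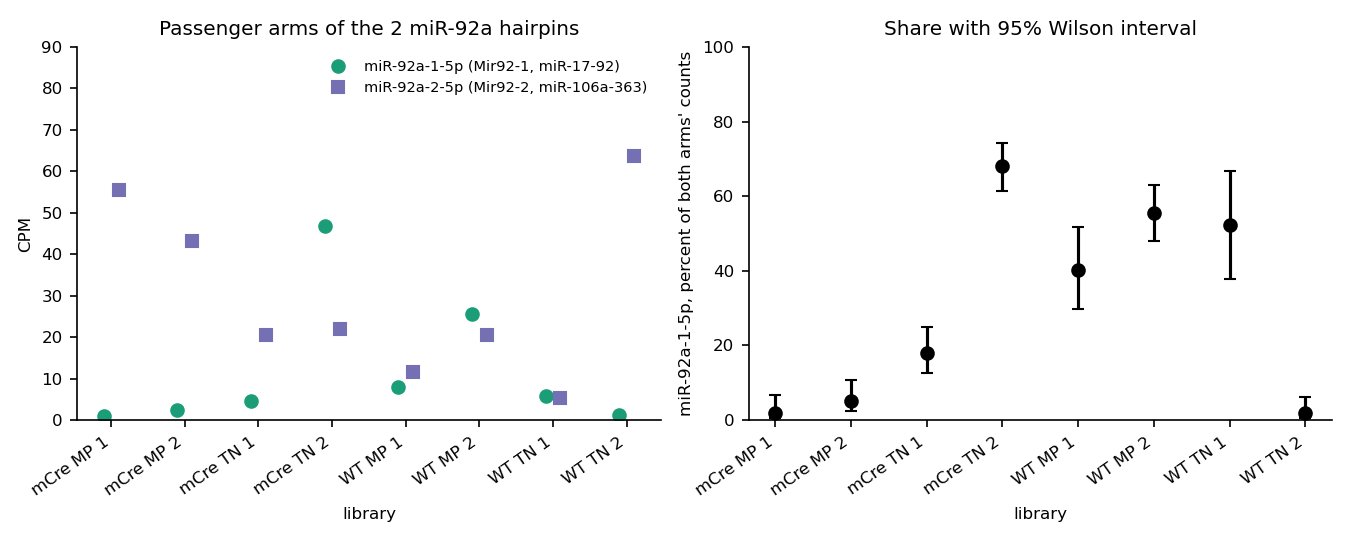
Left, CPM of the partner arms of the 2 miR-92a hairpins in each library, miR-92a-1-5p (circles) and miR-92a-2-5p (squares); right, the share of miR-92a-1-5p in the counts of both, in percent, with Wilson 95% intervals. The share is 1.87%, 5.13% and 1.74% in mCre MP 1, mCre MP 2 and WT TN 2, and 18.0% to 68.2% elsewhere.

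The paralogs were set beside the members by seed. With the seed of miR-17-5p and miR-20a-5p, 4 other miRNAs had counts, and the 2 members made up 26.7% to 61.6% of that seed group. The whole group ran from 331.5 to 4437 CPM. miR-93-5p, of the miR-106b-25 cluster, held 103.8 and 182.7 CPM in mCre MP, 504.0 and 1054 in mCre TN, 615.8 and 662.3 in WT MP, and 757.5 and 134.6 in WT TN. miR-106b-5p, miR-106a-5p and miR-20b-5p had ranges of 15.9 to 316.5, 6.36 to 175.1 and 34.96 to 456.3 CPM. All 4 had the same 3 lowest libraries as miR-17-5p, as did 22.8% of all miRNAs tested.

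The seed of miR-92a-3p is shared with miR-25-3p, miR-363-3p, miR-32-5p and miR-92b-3p, and miR-92a-3p made up 81.5% to 89.4% of that group. miR-25-3p, the abundant arm of miR-106b-25, held 9701 and 14350 CPM in mCre MP, 17182 and 18080.2 in mCre TN, 14389 and 18124 in WT MP, and 12175 and 12364 in WT TN, a spread narrower than that of the other 2 arms of its cluster. miR-363-3p ran from 101.4 to 420.4 CPM with its 3 lowest libraries those of miR-17-5p. The seed of miR-19a-3p and miR-19b-3p had no other member with counts, and that of miR-18a-5p had miR-18b-5p.

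Of the miR-106b-25 list 3 of 3 arms and of the miR-106a-363 list 5 of 6 passed the filter, and by edgeR 0 passed the threshold in any of the 6 comparisons. In mCre against WT among MP cells the median log2 fold change was -2.16 over the 3 miR-106b-25 arms and -1.0001 over the 5 miR-106a-363 arms, against -1.88 over the 6 members and -0.23 over all 382 miRNAs. In MP against TN within mCre mice the medians were -2.44, -1.11, -1.60 and -0.18 in that order. In MP against TN within WT mice they were 0.41, 0.07, -0.27 and 0.05. These comparisons share libraries and are given side by side. DESeq2 called miR-93-5p in MP against TN within mCre mice (adjusted p 0.0278), and with no filter on low counts miR-106b-5p and miR-93-5p passed there (edgeR adjusted p 0.0344 and 0.0387). Of all miRNAs 9.81% and 2.74% passed there. With a WT TN library or both TN replicate 2 libraries left out, more paralog arms passed in several comparisons, as did more of all miRNAs. Each of these fits leaves at least 1 TN group at 1 library, so no count of paralog arms is drawn from them.

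A list of 23 miRNAs that MYC is reported to repress, among them let-7, miR-26, miR-29, miR-30 and miR-150 forms, had 23 of 23 tested and by edgeR 0 past the threshold in any comparison. In MP against TN over both genotypes 10 had higher and 13 lower estimates, with a median of -0.24, against -0.04 over all miRNAs. With a WT TN library or both TN replicate 2 libraries left out, at least 1 TN group is 1 library. More list members then passed in several comparisons, as did more of all miRNAs. The list's share was above that of all miRNAs in some, among them mCre against WT in MP cells, and below it in others. No count is given from these fits, since a TN group of 1 library cannot show its own spread. DESeq2 called 4 in MP against TN within mCre mice, 1 of 22 within WT mice and 5 of 22 in the difference of the genotype effect. Of all miRNAs it called 9.81%, 4.11% and 5.14% there. With no filter on low counts 4 passed in the first and 3 in the last of these, where 2.74% and 1.14% of all miRNAs passed. These counts take both directions together. A list of 8 miRNAs tied to T cell activation had 7 tested, and 2 rose in MP cells over both genotypes, where 2.36% of all miRNAs passed. miR-21a-5p, induced by activation, rose by 1.87 ± 0.36 (log2, SE; edgeR adjusted p 0.0392), and miR-146a-5p, a brake on NF-kB signalling, by 2.61 ± 0.37 (0.0137). With single libraries left out miR-146a-5p passed in 3 of 8 fits (without mCre MP 1, mCre TN 2 or WT TN 2; adjusted p up to 0.112) and miR-21a-5p in 1 of 8 (without WT TN 2; up to 0.258), at estimates of 2.38 to 2.69 and 1.59 to 1.98. After leaving out both TN replicate 2 libraries the estimates were 2.78 for miR-146a-5p and 1.497 for miR-21a-5p. Each TN group is then 1 library, so no count of activation list members is drawn from that fit. In MP against TN DESeq2 called 3 of the 7 over both genotypes, 3 within WT mice and 2 within mCre mice. Of all miRNAs it called 6.21%, 4.11% and 9.81% in the same order. The median of the 7 was 1.27 in MP against TN over both genotypes with all libraries, where that of the 6 cluster arms was -1.23.

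The miRNAs most like the cluster were taken by Pearson r of log2 CPM over the 8 libraries with the summed level of the 6 arms, a sum that follows miR-92a-3p. They were miR-330-3p (r = 0.92), miR-1930-5p (0.92), miR-21a-3p (0.86), miR-877-5p (0.82) and miR-30b-3p (0.79), out of 376 compared. With the sum of the other 5 arms, a choice made after seeing the data, they were miR-20b-5p (0.98), miR-142a-3p (0.97), miR-106a-5p (0.96), miR-340-5p (0.95) and miR-101b-3p (0.94). The 2 lists have no miRNA in common. These are descriptions over 8 libraries that share depth and scaling, and miR-20b-5p and miR-106a-5p differ from miR-17-5p by 2 bases and 1 base.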

How the data were processed

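The authors deposited 1 table of expected counts for 8 small RNA libraries, with 2128 rows of mature miRNA names. Some values are not whole, to within 0.011, which looks like reads divided between rows; this was read from the values. The build was mm10, per the submitters' processing notes; no aligner, counter or annotation is given in the sources used here. Per the labels' protocols, libraries were made with a ligation-based kit after size selection. Nothing in the labels says that the 2 libraries of a group are from different mice. The p-values therefore set differences only against the spread of these libraries, and that spread may be technical.

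Rows of 1 name were summed (85 names stood in several rows) and rounded to whole counts. Names were filtered with filterByExpr of edgeR 4.0.16 (minimum count 10, minimum total 15), scaled by TMM and tested with the quasi-likelihood F test in R 4.3.3, with robust estimation. The 4-group fit had 4 residual degrees of freedom and a common dispersion of 0.356; MP against TN over both genotypes came from an additive fit. The SE was derived from the log2 fold change and the F statistic (its size over the root of F). DESeq2 1.42.0 was an alternative. Totals per library were 1936597 to 5230975 counts. Wilson intervals (95%) and the floor of 3 counts cover counting error only.

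The named miRNAs were the 6 members in every comparison, the partner arms and paralog arms that passed the filter, the 5 miRNAs most like the cluster, and list members past the threshold. The members and lists were chosen with earlier results of these data known. Pairing by replicate number was checked from the correlation of deviations between groups, which ran from -0.320 to 0.407. The numbers were not taken to pair libraries, though this check cannot exclude a pairing. Alternatives covered scaling, filter, tool, replicate block, rows of a name and left-out libraries.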

Additional observations from a re-analysis of the deposited data

Results flagged for a closer look

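The subset effect on miR-92a-1-5p, the partner arm of the chromosome 14 miR-92a hairpin, ran opposite ways in the 2 genotypes: both MP libraries lay below both TN libraries in mCre mice and above both in WT mice. The difference was -6.02 ± 1.90 on the log2 scale (edgeR interaction test, adjusted p 0.301), which does not pass the threshold. With DESeq2 it passed (adjusted p 0.0259), as it did with no filter on low counts (edgeR adjusted p 0.00855), where 5.14% and 1.14% of all miRNAs passed. Without both TN replicate 2 libraries it was -2.82.

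For miR-25-3p, of the paralog cluster miR-106b-25, both the genotype effect and the subset effect changed direction without overlap. mCre libraries lay below WT libraries among MP cells and above them among TN cells. The difference was -0.96 ± 0.57 (edgeR adjusted p 0.437).

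For miR-363-3p, of the miR-106a-363 cluster, both effects changed direction in the same way, with a difference of -2.05 ± 0.81 (edgeR adjusted p 0.301). Leaving out WT TN replicate 1, which leaves 1 WT TN library, let miR-363-3p pass (edgeR adjusted p 0.0332). With both TN replicate 2 libraries left out the differences were -0.94 for miR-25-3p and -1.17 for miR-363-3p (edgeR adjusted p 0.828 and 0.813). Of all 382 miRNAs, 8.90% had a genotype effect and 9.69% a subset effect that reversed without overlap in the same manner. For miR-25-3p among MP cells the gap was narrow, 14350 CPM in the higher mCre library against 14389 in the lower WT library. With all libraries none of these 3 differences passed edgeR's threshold, and each draws on the TN replicate 2 libraries whose miR-29a-3p ran against their labels. In 32 sets of 4 libraries, 0 were flagged by Dixon's ratio, the largest gap at an end over the range (critical value 0.829). With 4 values only a very large gap can be flagged, so a library that stands out is not excluded. For miR-19b-3p the TN libraries were not flagged, although WT TN replicate 1 held 856.1 CPM and the next library 193.4.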

How the results depend on the processing

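Of 618 fold changes of members recomputed under alternatives, 562 kept their direction and side of the threshold, 27 passed it newly and 29 reversed; the cause was not tested except where the libraries left out show it. The count of members called was 0 in each comparison. For MP against TN over both genotypes it was 4 without both TN replicate 2 libraries and 0 to 2 when single libraries were left out. For MP against TN in mCre it was 1 with no filter (miR-18a-5p, where 2.74% of all miRNAs passed), 1 with DESeq2 (9.81%), 2 without both TN replicate 2 libraries and 0 to 4 with single libraries left out. For MP against TN in WT it was 1, and for mCre against WT in MP 5, without both TN replicate 2 libraries. For the difference of the genotype effect it was 0 to 5 with single libraries left out. With the replicate block 0 members were called in every comparison, and 2 of all miRNAs where 9 passed without it in MP against TN over both genotypes; the block called 0 of all miRNAs elsewhere. With crossed numbers for mCre against WT in TN the count was also 0. Deviations of same-numbered libraries correlated below 0.1 in several group pairs and at 0.407 between WT MP and mCre TN. Whether such libraries share an animal or a batch is not known.

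Reversed estimates of MP against TN in WT were, for miR-17-5p, -0.10 with RLE factors, -0.17 with total counts, -0.0825 with DESeq2 and -0.91 without both TN replicate 2 libraries. For miR-18a-5p the value without those 2 libraries was -0.22. With single libraries left out these estimates ran from -0.88 to 2.24 for miR-17-5p, -0.19 to 7.56 for miR-18a-5p, -1.79 to 1.52 for miR-19a-3p, -1.56 to 2.65 for miR-20a-5p and -2.13 to 1.90 for miR-19b-3p. In mCre against WT among TN cells they ran from -1.18 to 1.87 for miR-17-5p, -1.43 to 1.83 for miR-19a-3p, -2.11 to 2.08 for miR-20a-5p and -2.24 to 1.72 for miR-19b-3p, and miR-18a-5p gave -0.70 without both TN replicate 2 libraries. The upper ends of these ranges came without WT TN replicate 1. For miR-92a-3p, MP against TN in mCre gave 0.0468 without both TN replicate 2 libraries and -0.32 to 0.0665 with single libraries left out. Its mCre against WT estimate in MP gave 0.00976 with RLE factors and -0.31 to 0.0957 with single libraries left out, and MP against TN over both genotypes gave -0.0372 from the second of its 2 rows. The difference of the genotype effect gave 0.46 for miR-19a-3p and 0.48 for miR-19b-3p without both TN replicate 2 libraries, and -3.62 to 0.47 for miR-19b-3p with single libraries left out.

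Of 140 recomputed ratios to miR-17-5p, 16 reversed and none passed. With single libraries left out, MP against TN ran from -1.28 to 0.16 for miR-18a-5p and -0.35 to 0.21 for miR-20a-5p, and mCre against WT from -0.82 to 0.85 for miR-18a-5p, -0.39 to 0.18 for miR-19a-3p and -0.38 to 0.0631 for miR-19b-3p; a pseudocount of 3 gave 0.28 for miR-18a-5p.

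Total counts in place of TMM moved the median of all miRNAs by -0.31 in MP against TN within mCre and by -0.25 in mCre against WT in MP. RLE factors moved it by -0.17 in MP against TN within WT. A fit on the rows of single hairpins was not run, since the rows of miR-19b-3p and miR-92a-3p name none. With the replicate block the adjusted p in MP against TN over both genotypes was 0.0235 for miR-146a-5p and 0.0733 for miR-21a-5p, and total counts gave 0.102 for miR-21a-5p. Counts of 0 to 42 limit miR-18a-5p.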
